A study of Mus musculus with 16 samples.

Results

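The genes described here are 9 genes of vessel tone in brain endothelial cells, taken as every row of the raw count table whose symbol is Edn1, Edn3, Ece1, Ednrb, Nos3, Ddah1, Ddah2, Ace or Adm. They are 9 of the 37003 genes in the table, all 9 symbols were found once, and all 9 were among the 31085 genes that passed the filter on low counts. RNA was sequenced in 16 libraries of endothelial cells sorted from mouse brain as DAPI-, CD45- and CD31+, 4 libraries for each pairing of genotype (CTRL or YT-iKO) with surgery (sham or MCAo). MCAo is a 30 minute occlusion of the middle cerebral artery followed by reperfusion, and cells were taken 72 h after MCAo or sham surgery. All mice carried floxed alleles of Yap1 and Wwtr1 (Yapfl/fl, Wwtr1fl/fl), the genes of the transcriptional coactivators YAP and TAZ, and all received tamoxifen before surgery. YT-iKO mice were also heterozygous for Pdgfb-iCreERT2 (Pdgfb-iCreER-eGFP in the study's methods), a tamoxifen-inducible Cre driven by Pdgfb sequences that are active in endothelial cells. CTRL were littermates without this transgene, which the design text writes as +/+. Mice were adults of both sexes, and each library is a pool of several mice, so the spread below is between pools. The CTRL to YT-iKO comparisons ask what loss of endothelial YAP and TAZ changes, and the MCAo to sham comparisons ask what ischemia changes in each genotype. Only YT-iKO mice carried the Cre transgene, so its presence and the loss of YAP and TAZ cannot be told apart.

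Endothelial cells set the tone of the vessel by the peptides and the gas they release. Endothelin precursors (Edn1, Edn3) are cleaved by endothelin-converting enzyme 1 (Ece1) into peptides that constrict vessels through a receptor on smooth muscle, while the endothelin B receptor (Ednrb) on endothelial cells clears endothelin and drives release of nitric oxide. Nitric oxide comes from endothelial nitric oxide synthase (Nos3), which is inhibited by asymmetric dimethylarginine. Ddah1 breaks that inhibitor down, and Ddah2 is its paralog. Angiotensin-converting enzyme (Ace) makes angiotensin II and degrades bradykinin, and adrenomedullin (Adm) is a peptide that relaxes vessels. YAP and TAZ do not bind DNA themselves and act on promoters and enhancers mainly through TEAD factors.

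Of the 9 genes, Edn1, Edn3 and Ddah1 had a lower level in YT-iKO cells than in CTRL cells after sham surgery, and Edn3 and Ddah1 were lower in YT-iKO after MCAo too. Ace was higher after MCAo in both genotypes, 6.01-fold in CTRL and 9.09-fold in YT-iKO. No gene of the 9 passed the test for a different response to MCAo between the genotypes. Fold changes are on the scale of CPM (counts scaled to a common library size) with library factors from edgeR's TMM method, and a gene is called at an adjusted p under 0.1 in edgeR's quasi-likelihood test over all genes. Edn1 had a log2 fold change of -1.09 between genotypes after MCAo, which was not called, while 7 of 12 other settings of the processing called it. Of the genotype calls among the 9, only that of Edn3 after sham held without each of the 16 libraries in turn. The lower levels after sham stand beside a median log2 fold change of -0.26 over 14 endothelial markers in the same comparison. In bulk samples, fewer cells of a type and less RNA per cell cannot be told apart.

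The 250 bases before the start of the 3 genes that were lower in YT-iKO are printed from RefSeq (GRCm38.p6, plus strand), because their levels moved together with the loss of coactivators that act through TEAD. The core of the TEAD motif, CATTCC, was searched on both strands, where it reads GGAATG on the other, and any match is in capitals. The windows are chr13:42301226-42301475 for Edn1, chr2:174760369-174760618 for Edn3 and chr3:145758442-145758691 for Ddah1, each written 5′ to 3′.
Edn1: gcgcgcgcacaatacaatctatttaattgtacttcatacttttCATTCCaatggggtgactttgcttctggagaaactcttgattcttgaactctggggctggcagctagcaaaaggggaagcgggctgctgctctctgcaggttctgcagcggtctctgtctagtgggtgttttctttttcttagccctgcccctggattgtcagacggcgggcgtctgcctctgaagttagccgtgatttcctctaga
Edn3: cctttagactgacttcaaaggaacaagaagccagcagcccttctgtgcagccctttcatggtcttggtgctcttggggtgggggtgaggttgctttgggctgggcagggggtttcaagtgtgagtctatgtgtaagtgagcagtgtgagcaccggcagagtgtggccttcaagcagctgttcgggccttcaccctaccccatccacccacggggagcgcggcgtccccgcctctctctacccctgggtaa
Ddah1: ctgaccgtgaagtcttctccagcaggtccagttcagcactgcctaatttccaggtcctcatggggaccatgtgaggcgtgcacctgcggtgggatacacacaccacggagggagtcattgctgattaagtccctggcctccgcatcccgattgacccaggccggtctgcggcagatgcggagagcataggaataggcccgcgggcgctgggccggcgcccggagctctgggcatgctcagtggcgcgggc
The Edn1 window holds 1 match, which begins 207 bases before the start, and the Edn3 and Ddah1 windows hold none. Among 32851 RefSeq windows of the same 250 bases, 4153 (12.6%) hold at least 1 match. Windows were found for 8 of the 9 genes, 12 windows in all since Ece1 and Ace have several starts, and the only other match among them is in Ddah2, 29 bases before its start on the minus strand. A match is a run of letters and not a measured binding site.

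Depth and cell makeup were described for all 16 libraries. Libraries held 11418262 to 23074547 counts (median 16441012), and the 9 genes took 0.113% to 0.271% of them. Yap1 was at 111 to 112 CPM in CTRL sham and 38.6 to 59.2 CPM in YT-iKO sham, and at 80.5 to 133 and 37.1 to 63.0 CPM after MCAo. Wwtr1 was at 253 to 276 and 45.0 to 95.9 CPM after sham, and at 235 to 438 and 60.7 to 136 CPM after MCAo. Both fell in YT-iKO, with sham surgery (log2 fold change of -1.18 ± 0.22 SE, edgeR adjusted p = 0.0371 for Yap1 and -1.88 ± 0.28, adjusted p = 0.0038 for Wwtr1) and after MCAo (-1.17 ± 0.22, adjusted p = 0.0478, and -1.88 ± 0.28, adjusted p = 0.0036). The Wwtr1 calls held without each of the 16 libraries. For Yap1 the sham call ended when replicate 2 of CTRL sham (edgeR adjusted p = 0.186) or replicate 4 of YT-iKO sham (0.359) was left out. The MCAo call of Yap1 ended when leaving out replicate 2 of CTRL sham (0.129), replicate 4 of CTRL MCAo (0.473), replicate 4 of YT-iKO sham (0.115) or replicate 3 of YT-iKO MCAo (0.250). All 14 endothelial markers were detected in every group, and their summed level was 22100 to 23892 CPM in CTRL sham, 15985 to 27634 in CTRL MCAo, 13354 to 22939 in YT-iKO sham and 12184 to 24837 in YT-iKO MCAo. After sham, 0 of the 14 had a log2 fold change above 0 for YT-iKO against CTRL, with a median log2 fold change of -0.26, and the log2 difference of their sum was -0.37 (exact permutation p = 0.0571). The pericyte sum moved alike (-0.37, exact permutation p = 0.0857), from 839 to 1067 CPM in CTRL sham to 609 to 1015 in YT-iKO sham, with 2 of 10 markers above 0. The astrocyte sum was lower too (-0.39, exact permutation p = 0.0286), although 5 of its 10 markers were above 0 and their median log2 fold change was -0.03. Other lists had most markers above 0: neuron 5 of 6 (median 0.50, sum 0.38, exact permutation p = 0.0571), oligodendrocyte 7 of 8 (median 0.45) and fibroblast 6 of 7 (0.19). So did microglia and macrophage with 8 of 9 (0.18), monocyte and neutrophil with 5 of 6 (0.72), lymphocyte with 5 of 5 (0.39) and red cell with 4 of 4 (0.84). For MCAo in CTRL the sums of 3 lists did not overlap between groups: fibroblast (log2 difference 0.63), oligodendrocyte (0.30) and neuron (-0.45), each with an exact permutation p of 0.0286, not adjusted over the 11 lists. Of their markers 6 of 7, 7 of 8 and 4 of 6 had a log2 fold change above 0, with medians of 0.75, 0.28 and 0.23, so the sum and the median of the neuron list differ in sign. In YT-iKO the differences of the sums were 0.46, 0.16 and -0.40 (exact permutation p = 0.114, 0.4 and 0.171). Pericyte markers were above 0 for MCAo in 9 of 10 in both genotypes (medians 0.45 and 0.57), with sums that differed by 0.11 and 0.28. Monocyte and neutrophil markers were above 0 in 6 of 6 in CTRL (0.50) and 3 of 6 in YT-iKO (-0.09). Red cell markers were above 0 in 0 of 4 in both (-0.45 and -0.97). In edgeR no marker of any list was called in any of the 4 comparisons, and 4, 2, 7 and 9 of 86 had an unadjusted p under 0.05 between genotypes after sham, after MCAo, and for MCAo in CTRL and YT-iKO. DESeq2 called Dcn, a fibroblast marker, higher after MCAo in both genotypes (2.18, adjusted p = 0.0044, and 2.09, adjusted p = 0.0076), and in CTRL also Gfap higher and Stmn2 lower. In the same order limma-voom with quality weights called 2, 5, 27 and 17 markers. The part of these cells in the results was not tested. TMM factors ran from 0.743 to 1.40, and the libraries with factors above 1.1 were replicates 2 and 3 of both MCAo groups and replicate 3 of YT-iKO sham. The same 5 libraries had the most counts on olfactory, vomeronasal and taste receptor genes, 0.328 to 0.576 CPM per kb of exon against 0.0308 to 0.253 in the other 11, and the levels of the 9 genes in these 5 libraries are higher when factors come from abundant genes alone. Results are therefore also given with TMM factors computed only from genes that average 10 CPM or more, called the abundant-gene scale below, and without those 5 libraries, an alternative chosen after the data were seen. The set without the 5 libraries keeps 11, and leaves 2 in each MCAo group. Between genotypes it called 0.413% of all genes after sham and 0.396% after MCAo, and between surgeries 3.05% in CTRL and 6.23% in YT-iKO. In the same order DESeq2 called 0.176%, 0.211%, 0.549% and 0.646%, and limma-voom with quality weights called 0.46%, 0.827%, 24.2% and 18.1%.

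Per length, Ece1 was the most abundant of the 9 genes in every group and Ednrb the least. In CTRL sham, the mean level per kb of exon fell from Ece1 (169 ± 15 CPM per kb, SD, n = 4) to Nos3 (77.4 ± 2.74), Edn1 (48.6 ± 3.35), Edn3 (22.7 ± 4.13), Ddah1 (15.6 ± 1.1), Ace (12.3 ± 0.93), Adm (12.1 ± 2.47), Ddah2 (9.53 ± 2.67) and Ednrb (1.55 ± 0.48). Ace, Adm and Ddah2 were not separated from their neighbours in that order, since the ranges of Ace and Adm, and those of Adm and Ddah2, overlapped. In YT-iKO sham, Edn1 stood at 14.8 ± 3.20 CPM per kb, its range overlapping that of Ace (12.3 ± 1.88), and Ddah1 (6.94 ± 1.14) had a mean below those of Ddah2 (8.73 ± 2.18), Edn3 (8.28 ± 1.64) and Adm (8.11 ± 2.83), where each range overlapped that of the next gene in the order. After MCAo, Ace stood at 74.0 ± 35.1 CPM per kb in CTRL and 112 ± 82.1 in YT-iKO, where its range overlapped those of Nos3 (78.9 ± 21.1 and 74.0 ± 31.7).

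**Figure D1:**
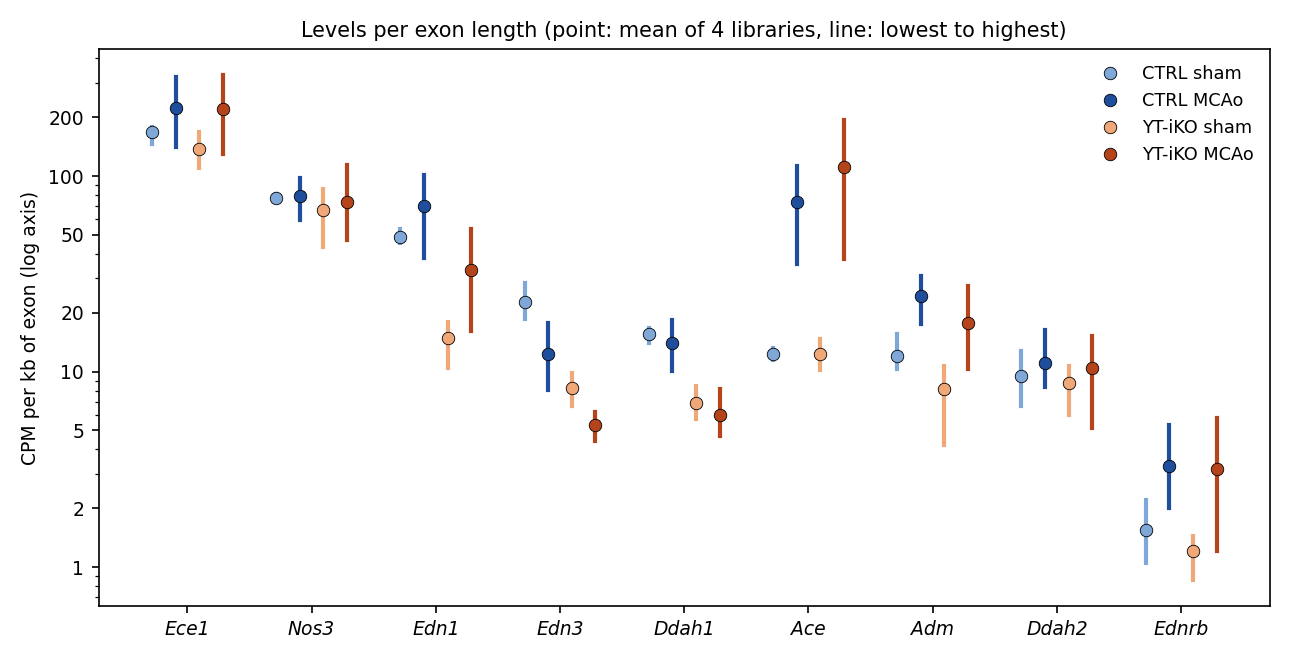
Level of each gene per kb of exon (CPM per kb, log axis) in the 4 groups of 4 libraries, with genes in the order of their CTRL sham means; points are means and lines run from the lowest to the highest library. Ece1 and Nos3 lie highest, Ednrb lowest, and Ace moves from 12.3 CPM per kb in CTRL sham to 74.0 in CTRL MCAo.

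Edn1 (ENSMUSG00000021367, GRCm38 chr13:42301476-42307990, plus strand) encodes the precursor of endothelin-1, the main endothelin of endothelial cells. In CTRL sham its level was 114, 97.3, 102 and 103 CPM in replicates 1 to 4, and in YT-iKO sham 38.3, 34.3, 22.2 and 31.6 CPM. Every YT-iKO sham library was below every CTRL sham library. The log2 fold change was -1.72 ± 0.33 (SE, edgeR adjusted p = 0.0391), or 0.304 times the CTRL level, and all 11 other planned settings and the set without the 5 libraries called it. Leaving out single libraries ended the call in 4 of 16 cases: the edgeR adjusted p was 0.112 and 0.134 when replicate 1 or 2 of CTRL sham was left out, and 0.159 and 0.260 when replicate 3 or 4 of YT-iKO sham was, at log2 fold changes of -1.80 to -1.57 over all 16. Exons of Edn1 share 35 bases with Gm47118 on the opposite strand.

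After MCAo, Edn1 was at 216, 115, 81.9 and 187 CPM in CTRL and at 115, 50.3, 34.4 and 82.2 CPM in YT-iKO. The groups overlapped on this scale, with YT-iKO replicates 1 and 4 above CTRL replicate 3. The difference of -1.09 ± 0.32 on the log2 scale did not pass the test (edgeR adjusted p = 0.931, unadjusted p = 0.0026), but it did on the abundant-gene scale (-1.08, adjusted p = 0.0152), in DESeq2 (adjusted p = 0.0951), under limma-voom with quality weights (-1.52, adjusted p = 4.1e-05) and without the 5 libraries (-1.04, adjusted p = 0.0106). It was also called without YT-iKO MCAo replicate 1 alone (-1.52, adjusted p = 0.061) and with replicate number as a block (-1.12, adjusted p = 0.0652). Library sums (-1.01, adjusted p = 0.021) and receptor gene density as a covariate (-1.15, adjusted p = 0.0011) gave the call too. It was not called with RLE factors (-1.12, adjusted p = 0.567), no filter (-1.14, 0.534), a stricter filter (-1.10, 0.304) or a model of the 2 groups alone (-1.07, 0.659). On the abundant-gene scale the same libraries read 168, 134, 103 and 170 CPM in CTRL and 101.03, 68.0, 42.5 and 60.0 in YT-iKO, and there every YT-iKO library was below every CTRL library.

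Compared with sham, Edn1 was higher after MCAo by 0.53 ± 0.32 in CTRL (edgeR adjusted p = 1.00) and by 1.16 ± 0.32 in YT-iKO (adjusted p = 0.290) on the log2 scale, and neither passed the test. In YT-iKO the call was made, among other settings, on the abundant-gene scale (1.07, adjusted p = 0.0095), in DESeq2 (adjusted p = 0.0378) and without YT-iKO MCAo replicate 3 (1.38, adjusted p = 0.0496), and not under limma-voom with quality weights, where the value was 0.27. In CTRL it was called only without the 5 libraries (0.89, adjusted p = 0.0016). The response in YT-iKO minus that in CTRL was 0.63 ± 0.45 (adjusted p = 1.00, 95% interval -0.30 to 1.56).

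Edn3 (ENSMUSG00000027524, chr2:174760619-174784042, plus strand) encodes endothelin-3, which acts mainly on the endothelin B receptor. Its level was 76.7, 92.4, 117 and 87.2 CPM in CTRL sham and 39.0, 29.3, 27.3 and 40.6 CPM in YT-iKO sham. After MCAo it was 72.6, 33.1, 44.8 and 52.7 CPM in CTRL and 22.1, 18.2, 22.5 and 25.4 CPM in YT-iKO. After either surgery every YT-iKO library lay below every CTRL library of the same surgery, and in each genotype every MCAo library lay below every sham library.

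Edn3 was lower in YT-iKO by 1.45 ± 0.23 on the log2 scale after sham (a log2 fold change of -1.45, edgeR adjusted p = 0.0072) and this call held without each of the 16 libraries in turn. After MCAo the log2 fold change was -1.20 ± 0.23 (adjusted p = 0.0497). That call ended when leaving out replicate 4 of CTRL MCAo (edgeR adjusted p = 0.372), replicate 3 of YT-iKO MCAo (0.162), replicate 2 of CTRL sham (0.129) or replicate 4 of YT-iKO sham (0.114), while the log2 fold change stayed between -1.37 and -1.08.

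The lower level of Edn3 after MCAo, -0.88 ± 0.23 in CTRL (edgeR adjusted p = 0.214) and -0.63 ± 0.23 in YT-iKO (adjusted p = 0.889), was not called. On the abundant-gene scale both were, at -0.80 (adjusted p = 0.0170) and -0.65 (adjusted p = 0.0701), although in YT-iKO the groups then overlapped. Of the 12 settings other than leaving out 1 library, 9 called it in CTRL, among them DESeq2 (-0.87, adjusted p = 0.0182), the replicate block (-0.92, adjusted p = 0.0691) and limma-voom with quality weights (-1.26, adjusted p = 8.2e-06), and 5 called it in YT-iKO, where DESeq2 did not (adjusted p = 0.252). In CTRL it was also called when leaving out replicate 1 of CTRL MCAo (adjusted p = 0.068), replicate 3 of YT-iKO sham (0.0911), or replicate 2 (0.0906) or 4 (0.0646) of YT-iKO MCAo.

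The log2 fold changes of Edn1 and Edn3 for MCAo against sham thus had opposite signs. EdgeR called neither gene in either genotype, and the Edn1 libraries overlapped between MCAo and sham in both. The ratio of Edn1 to Edn3 within a library does not depend on any library factor. Counts per kb of Edn1 over those of Edn3 were 2.86, 2.02, 1.68 and 2.27 in CTRL sham and 5.73, 6.65, 3.51 and 6.83 in CTRL MCAo. In YT-iKO they were 1.89, 2.26, 1.56 and 1.5 after sham and 10.03, 5.30, 2.93 and 6.22 after MCAo. In both genotypes every MCAo library had a higher ratio than every sham library, by 1.34 on the log2 scale in CTRL and 1.65 in YT-iKO, and the genotypes overlapped after either surgery. The ratios were chosen after the values were seen, so no test is given.

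**Figure D2:**
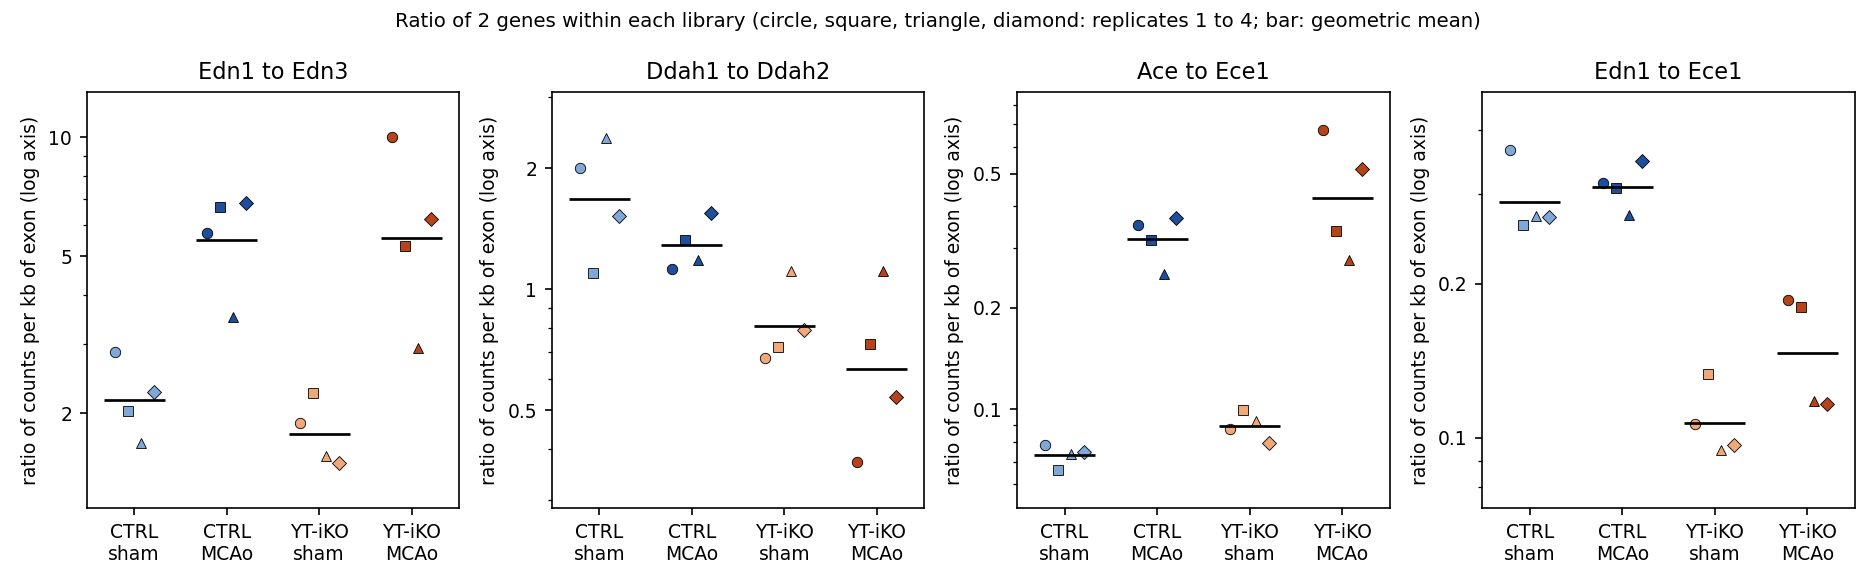
Ratio of counts per kb of exon of 2 genes in each library (log axis), by group; symbols are replicates 1 to 4 and bars are geometric means. Edn1 over Edn3 is higher in all MCAo than in all sham libraries of each genotype, and Edn1 over Ece1 is lower in all YT-iKO than in all CTRL libraries.

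Ece1 (ENSMUSG00000057530, chr4:137862237-137965229, plus strand), the protease that releases mature endothelin, was at 775 to 942 CPM in CTRL sham, 746 to 1703 in CTRL MCAo, 582 to 893 in YT-iKO sham and 691 to 1751 in YT-iKO MCAo. The groups overlapped in all 4 comparisons and no call was made (log2 fold changes -0.29, -0.0017, 0.40 and 0.68, each with an SE of 0.32, edgeR adjusted p of at least 0.990). In both MCAo groups replicates 1 and 4 were far above replicates 2 and 3, and the coefficient of variation in YT-iKO MCAo, 46.6%, was 20.9% on the abundant-gene scale. There the MCAo and sham libraries did not overlap in either genotype, and the difference was 0.45 in CTRL (adjusted p = 0.255) and 0.55 in YT-iKO (adjusted p = 0.0983), and without the 5 libraries it was called in both (0.70, adjusted p = 0.0108, and 0.97, adjusted p = 0.00087).

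Set against Ece1 in the same library, Edn1 was 0.365, 0.260, 0.271 and 0.270 per kb in CTRL sham and 0.315, 0.308, 0.272 and 0.348 in CTRL MCAo. In YT-iKO it was 0.106, 0.133, 0.0946 and 0.0966 after sham and 0.186, 0.180, 0.118 and 0.116 after MCAo. After either surgery every YT-iKO library was below every CTRL library in this ratio. The log2 difference was -1.44 after sham and -1.08 after MCAo.

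Ednrb (ENSMUSG00000022122, chr14:103814625-103844402, minus strand), the endothelin B receptor, was the lowest of the 9 genes, with 65 to 398 counts per library. It was at 4.47, 6.21, 6.37 and 9.36 CPM in CTRL sham, and at 22.6, 12.2, 8.61 and 12.8 CPM in CTRL MCAo. In YT-iKO it was at 6.17, 3.65, 5.44 and 5.47 CPM after sham and 17.2, 5.14, 6.86 and 24.8 CPM after MCAo. MCAo and sham libraries overlapped in each genotype on this scale, by 1 CTRL MCAo library and by 1 YT-iKO MCAo library.

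The MCAo differences in Ednrb were 1.09 ± 0.39 in CTRL (edgeR adjusted p = 0.887) and 1.38 ± 0.39 in YT-iKO (adjusted p = 0.317) on the log2 scale, and neither was called. In YT-iKO it was called without MCAo replicate 2 (1.61, adjusted p = 0.037) or MCAo replicate 3 (1.60, adjusted p = 0.0951), on the abundant-gene scale (1.16, adjusted p = 0.0995) and in DESeq2 (1.36, adjusted p = 0.0539). Under limma-voom with quality weights it was not called in YT-iKO (0.43, adjusted p = 0.256) and was called in CTRL (0.91, adjusted p = 0.0111), beside 24.2% of all genes. Without the 5 libraries it was called in both genotypes, at 1.35 and 1.93. A model of the 2 groups alone called it in CTRL (1.09, adjusted p = 0.0125) and not in YT-iKO (1.23, adjusted p = 0.946). An even background at the density of the receptor genes would account for 0.71% to 34.2% of the Ednrb counts of a library, more than for any other of the 9 genes. With receptor gene density as a covariate in edgeR, it was called in both genotypes (1.14, adjusted p = 0.0038, in CTRL and 0.93, adjusted p = 0.0428, in YT-iKO). Ednrb is known in astrocytes too, whose 10 markers summed to 109 to 126 CPM in CTRL sham, 108 to 127 in CTRL MCAo, 72.6 to 101.4 in YT-iKO sham and 88.7 to 123 in YT-iKO MCAo. For MCAo against sham, 6 of the 10 had a log2 fold change above 0 in each genotype, and the log2 difference of their sum was 0.00048 in CTRL and 0.22 in YT-iKO. Between CTRL sham and CTRL MCAo the median of Gfap went from 5.19 to 11.3 CPM and that of Aqp4 from 2.01 to 3.35, while that of Slc1a2 went from 20.5 to 13.5 and that of Slc1a3 from 11.1 to 9.42. Of these, edgeR called none and DESeq2 called Gfap (1.15, adjusted p = 0.0079). Their part in the Ednrb values was not tested.

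Nos3 (ENSMUSG00000028978, chr5:24364810-24384474, plus strand), the source of endothelial nitric oxide, was at 311 to 336 CPM in CTRL sham, 246 to 402 in CTRL MCAo, 180 to 356 in YT-iKO sham and 193 to 472 in YT-iKO MCAo. The groups overlapped in all 4 comparisons. Log2 fold changes were -0.20 ± 0.28 and -0.09 ± 0.28 for YT-iKO against CTRL after sham and MCAo, and 0.03 ± 0.28 and 0.14 ± 0.28 for MCAo against sham in CTRL and YT-iKO. The 95% intervals, -0.79 to 0.38 and -0.68 to 0.49 for the genotype and -0.56 to 0.61 and -0.45 to 0.73 for MCAo, include changes in either direction. On the abundant-gene scale the values in the same order were -0.08, -0.13, 0.10 and 0.05, each with an SE of 0.11, and none was called. Under limma-voom with quality weights the MCAo value in YT-iKO was -0.46, with the opposite sign, and was called (adjusted p = 0.0815) in a fit that called 18.1% of all genes. Exons of Nos3 share 1040 bases with Gm15587 and 294 with Atg9b on the opposite strand, and whether counting used strand is not given in the sources used here.

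Ddah1 (ENSMUSG00000028194, chr3:145758675-145894277, plus strand) encodes dimethylarginine dimethylaminohydrolase 1, which removes the endogenous inhibitor of nitric oxide synthases. It was at 66.2, 55.8, 62.9 and 63.0 CPM in CTRL sham and 27.4, 22.9, 26.5 and 33.8 CPM in YT-iKO sham. After MCAo it was at 72.8, 43.9, 40.3 and 67.3 CPM in CTRL and 22.2, 18.7, 22.7 and 32.6 CPM in YT-iKO. Every YT-iKO library was below every CTRL library after either surgery.

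The log2 fold change of Ddah1 was -1.16 ± 0.22 after sham (edgeR adjusted p = 0.0391) and -1.22 ± 0.22 after MCAo (adjusted p = 0.0356), and all 11 other planned settings and the set without the 5 libraries made both calls. The sham call ended when leaving out replicate 2 of CTRL sham (edgeR adjusted p = 0.134) or replicate 4 of YT-iKO sham (0.118), and the MCAo call when leaving out replicate 4 of CTRL MCAo (0.372) or replicate 3 of YT-iKO MCAo (0.146). Ddah1 was not called between MCAo and sham (-0.14 ± 0.22 in CTRL and -0.20 ± 0.22 in YT-iKO, edgeR adjusted p = 1.00 in both), except under limma-voom with quality weights in CTRL (-0.42, adjusted p = 0.0497), where 24.2% of all genes were called.

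Ddah2 (ENSMUSG00000007039, chr17:35059035-35062095, plus strand), the paralog of Ddah1, was at 10.6 to 20.4 CPM in CTRL sham, 13.2 to 25.9 in CTRL MCAo, 9.52 to 17.1 in YT-iKO sham and 8.16 to 24.1 in YT-iKO MCAo, and the groups overlapped in all 4 comparisons. Its genotype differences were -0.13 ± 0.32 after sham and -0.08 ± 0.32 after MCAo on the log2 scale, and its MCAo differences 0.21 ± 0.32 in CTRL and 0.26 ± 0.32 in YT-iKO, none of them called. Under limma-voom with quality weights the YT-iKO value was -0.68, with the opposite sign, and was called (adjusted p = 0.0812), as were 18.1% of all genes. Counts per kb of Ddah1 over those of Ddah2 were 2.00, 1.09, 2.38 and 1.52 in CTRL sham, 1.12, 1.33, 1.18 and 1.54 in CTRL MCAo, 0.673, 0.719, 1.11 and 0.792 in YT-iKO sham and 0.371, 0.729, 1.11 and 0.541 in YT-iKO MCAo. Ddah1 exceeded Ddah2 in all 8 CTRL libraries and in 2 of the 8 YT-iKO libraries, replicate 3 of each surgery. The ratio was lower in YT-iKO by a log2 difference of -1.05 after sham, where the groups overlapped by CTRL replicate 2 and YT-iKO replicate 3, and of -1.02 after MCAo, where they did not.

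Ace (ENSMUSG00000020681, chr11:105967945-105989964, plus strand) encodes the peptidase that forms angiotensin II. In sham libraries it was at 60.6, 61.2, 68.4 and 70.2 CPM in CTRL and at 77.8, 63.6, 53.6 and 64.4 CPM in YT-iKO. After MCAo it was at 596, 291, 188 and 490 CPM in CTRL and at 1025, 233, 200 and 900 CPM in YT-iKO. Sham and MCAo libraries did not overlap in either genotype.

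The log2 fold change of Ace after MCAo was 2.59 ± 0.44 in CTRL (edgeR adjusted p = 0.0094) and 3.18 ± 0.45 in YT-iKO (adjusted p = 0.0016), and it was called in both genotypes without each of the 16 libraries, in all 11 other planned settings and without the 5 libraries. It was 2.61 and 2.98 on the abundant-gene scale and 2.15 and 1.76 under limma-voom with quality weights. No difference in Ace between genotypes was detected after sham (-0.0045 ± 0.42 on the log2 scale, edgeR adjusted p = 0.999). After MCAo the difference was 0.59 ± 0.41 (adjusted p = 1.00, 95% interval -0.27 to 1.45), it was called without the 5 libraries (0.81, adjusted p = 0.0272), and it had the opposite sign, -0.34, under limma-voom with quality weights. Replicates 1 and 4 of YT-iKO MCAo were also above replicates 2 and 3 on the abundant-gene scale, at 900 and 658 against 315 and 247 CPM. Exons of Ace share 295 bases with Gm11651 on the opposite strand.

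Against Ece1 in the same library, the other peptidase of the 9 genes, Ace was 0.0662 to 0.0784 per kb in CTRL sham, 0.0796 to 0.0997 in YT-iKO sham, 0.253 to 0.369 in CTRL MCAo and 0.278 to 0.671 in YT-iKO MCAo. Every MCAo library was above every sham library. The YT-iKO sham libraries were all above the CTRL sham libraries in this ratio, by 0.29 on the log2 scale, while after MCAo the genotypes overlapped. Between the sham groups the edgeR log2 fold change was -0.0045 for Ace and -0.29 for Ece1, neither of them called.

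Adm (ENSMUSG00000030790, chr7:110627661-110629820, plus strand) encodes the vasodilator adrenomedullin. It was at 16.7, 17.1, 25.3 and 19 CPM in CTRL sham and 45.7, 28.4, 33.2 and 49.9 CPM in CTRL MCAo. In YT-iKO it was at 13.0, 15.3, 17.4 and 6.79 CPM after sham and 35.7, 16.8, 18.5 and 44.5 CPM after MCAo. The CTRL groups did not overlap, and in YT-iKO only MCAo replicate 2 was below the highest sham library.

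The MCAo differences in Adm, 1.01 ± 0.30 in CTRL (edgeR adjusted p = 0.497) and 1.14 ± 0.31 in YT-iKO (adjusted p = 0.250) on the log2 scale, were not called. On the abundant-gene scale both were (1.1, adjusted p = 0.0388, and 0.97, adjusted p = 0.0834), as in DESeq2 (adjusted p = 0.0907 and 0.0367). Single libraries decided them too: in CTRL it was called without YT-iKO MCAo replicate 4 (adjusted p = 0.0831), and in YT-iKO without MCAo replicate 2 (0.0417) or replicate 3 (0.0874). Adm was lower in YT-iKO by a log2 fold change of -0.57 ± 0.31 after sham and -0.44 ± 0.30 after MCAo, which was not called (adjusted p = 0.990 and 1.00).

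**Figure D3:**
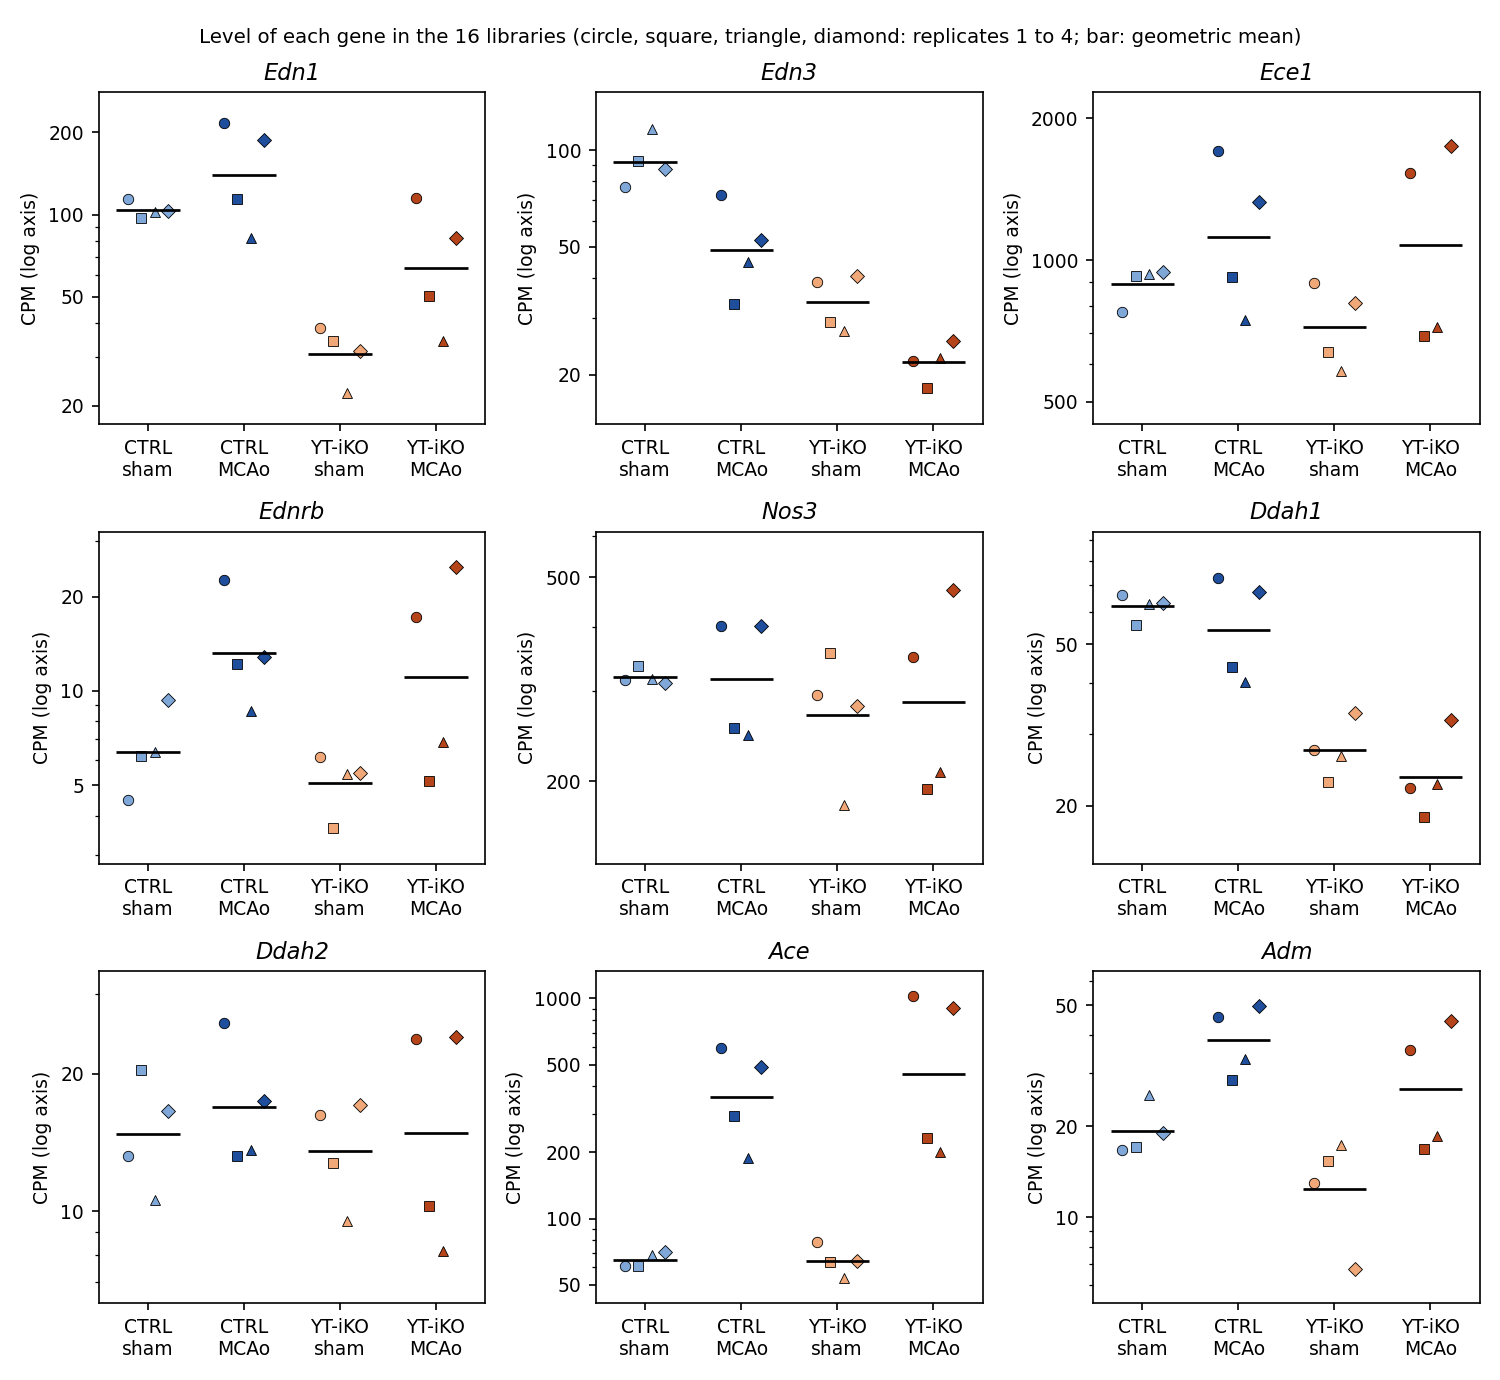
Level of the 9 genes in each of the 16 libraries (CPM with TMM factors, log axis) by group, with symbols for replicates 1 to 4 and bars for geometric means. Edn1, Edn3 and Ddah1 are lower in all 4 YT-iKO sham than in all 4 CTRL sham libraries, Ace is higher in all MCAo libraries, and replicates 1 and 4 are the upper libraries of both MCAo groups in Ece1, Nos3, Ace and Adm.

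Counted over the 9 genes, 3 were called after sham between genotypes, all lower in YT-iKO, where 28 of 31085 genes (0.0901%) were called lower. After MCAo 2 were called lower, against 21 genes (0.0676%). MCAo against sham gave 1 call, Ace, in each genotype, against 57 genes (0.183%) called higher in CTRL and 86 (0.277%) in YT-iKO. The difference of the responses gave 0 calls among the 9 and 0% of all genes in edgeR, where 0 of the 9 and 116 of all genes had an unadjusted p under 0.05. DESeq2 and limma-voom with quality weights also called 0 genes, with 265 and 1368 at an unadjusted p under 0.05, and with receptor gene density as a covariate or without the 5 libraries 1 gene outside the 9 was called.

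Libraries of the groups did not overlap in 3 of the 9 genes between genotypes after sham (3.85% of all genes tested, in either direction) and in 2 after MCAo (0.981%). Between MCAo and sham they did not overlap in 3 of the 9 in CTRL, Edn3, Ace and Adm (4.14%), and in 2 in YT-iKO, Edn3 and Ace (1.28%). The exact two-sided permutation test of 4 against 4 libraries on log2(CPM + 1) gave p = 0.0286 for each of these 10, which is the smallest it can give.

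On the abundant-gene scale the calls among the 9 were 3 after sham between genotypes (0.392% of all genes in either direction), 3 after MCAo (0.582%), 3 in CTRL after MCAo (1.83%) and 6 in YT-iKO after MCAo (1.75%). The extra calls were Edn1 between genotypes after MCAo, Edn3 and Adm in CTRL, and Edn1, Edn3, Ece1, Ednrb and Adm in YT-iKO. That scaling moved the median log2 fold change of all genes from 0.11 to 0.30 between genotypes after sham and from 0.07 to 0.21 for MCAo in CTRL, while the 9 genes had median log2 fold changes of -0.35, -0.09, 0.40 and 0.68 in the 4 comparisons on the TMM scale. Comparisons that share a group share its libraries, so the calls are not independent of each other.

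**Figure D4:**
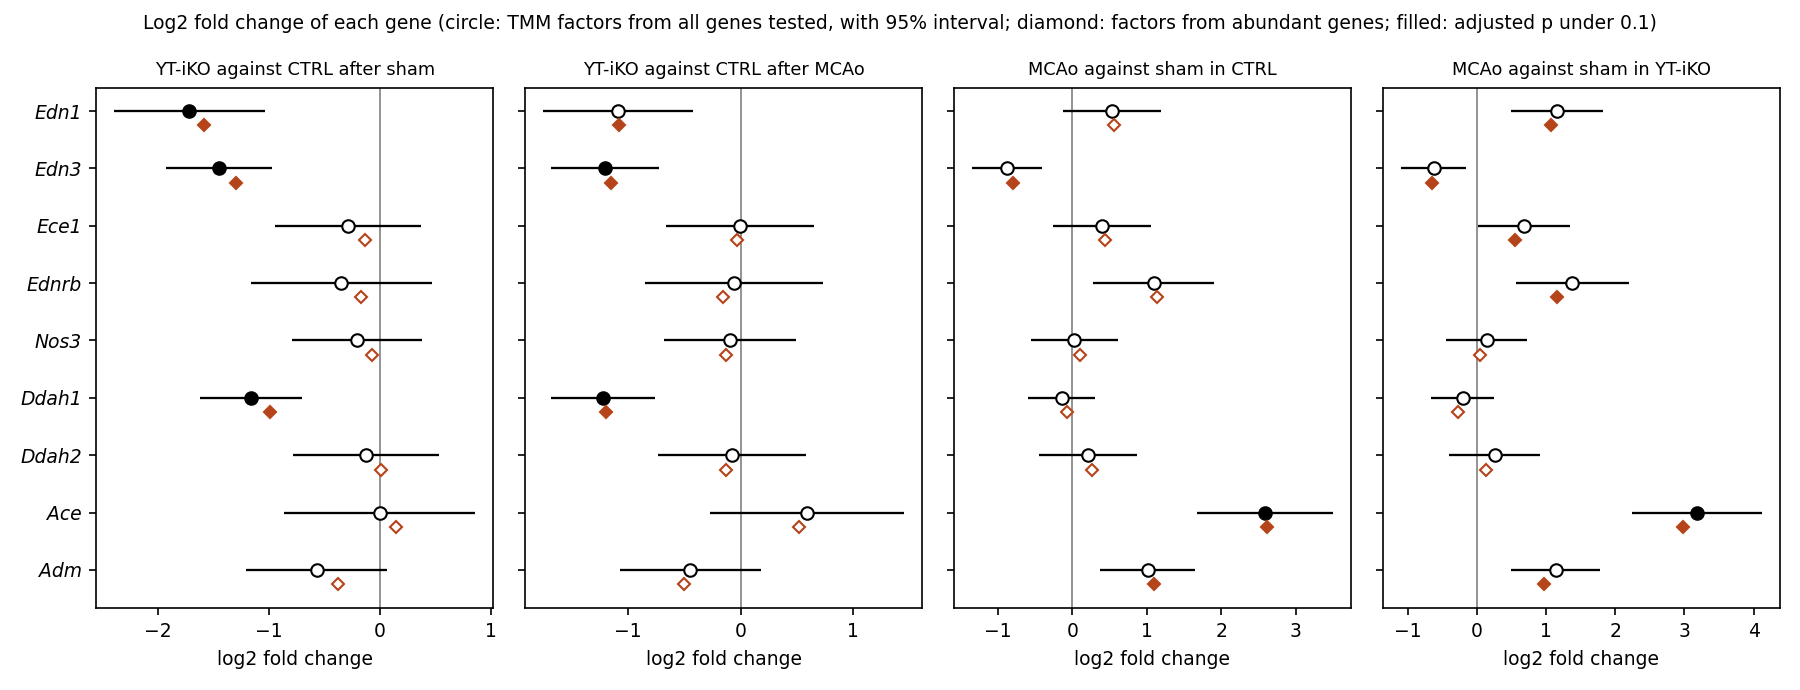
Log2 fold change of each gene in the 4 comparisons; circles with 95% intervals use TMM factors from all genes, diamonds use factors from abundant genes, and filled symbols have an adjusted p under 0.1. Edn1, Edn3 and Ddah1 lie at -1.72, -1.45 and -1.16 between genotypes after sham, and Ace at 2.59 and 3.18 after MCAo.

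The wider vasoactive pathway was read from lists of 98 other tested genes: 15 peptide ligands, 12 processing enzymes, 22 receptors, 26 genes of nitric oxide synthesis and regulation and 23 genes of cGMP signalling and vessel relaxation. In edgeR none was called between genotypes after either surgery, where 8 and 7 had an unadjusted p under 0.05, 53 and 52 of the 98 had values above 0 and the median log2 fold changes were 0.02 and 0.01. DESeq2 called 1, Slc7a1, lower in YT-iKO after both surgeries (-0.98, adjusted p = 0.0652, and -1.13, adjusted p = 0.0091), and limma-voom with quality weights called 3 and 5, all lower. Of all genes edgeR called 0.0901% and 0.0676% lower, while in either direction DESeq2 called 0.176% and 0.211% and limma-voom 0.46% and 0.827%. For MCAo against sham edgeR called 1 in CTRL and 2 in YT-iKO, all higher, at medians of 0.12 and 0.13. Over all genes edgeR called 0.183% and 0.277% higher. DESeq2 called the same genes and Ednra in YT-iKO (0.98, adjusted p = 0.0539), beside 0.549% and 0.646% of all genes. Under limma-voom with quality weights 27 were called in CTRL (14 higher, 13 lower) and 20 in YT-iKO (12 higher, 8 lower), beside 24.2% and 18.1% of all genes.

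Ptgs2, which encodes the prostanoid-forming cyclooxygenase-2, was at 35.5, 28.1, 34.8 and 32.2 CPM in CTRL sham and 164, 67.4, 54.0 and 107 CPM in CTRL MCAo, and at 30.8, 38.3, 23.0 and 36.4 CPM in YT-iKO sham and 157, 75.8, 59.6 and 166 CPM in YT-iKO MCAo. Sham and MCAo did not overlap in either genotype. The log2 fold change was 1.59 ± 0.33 in CTRL (edgeR adjusted p = 0.0581) and 1.84 ± 0.33 in YT-iKO (adjusted p = 0.0164). The YT-iKO call held without each of the 16 libraries, and the CTRL call ended when leaving out replicate 1 (0.151), 2 (0.385), 3 (0.149) or 4 (0.119) of CTRL sham, replicate 1 (0.171) or 4 (0.238) of CTRL MCAo, or replicate 4 of YT-iKO sham (0.107), all edgeR adjusted p.

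Gja4, the gap junction protein connexin 37 of arterial endothelium, was at 12.1, 8.71, 7.77 and 11.5 CPM in YT-iKO sham and 105, 26.9, 15.7 and 52.5 CPM in YT-iKO MCAo. All MCAo libraries were above all sham libraries. The log2 fold change was 2.32 ± 0.42 (edgeR adjusted p = 0.0158), and it was lost without YT-iKO sham replicate 2 (0.117). In CTRL the value was 0.91 ± 0.41 (adjusted p = 1.00), and the difference of the responses, 1.41 ± 0.58, was not called (adjusted p = 1.00).

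The lists with no edgeR call on the TMM scale were led per length by Uts2 among ligands (2.14 CPM per kb over the 16 libraries), Furin, a proprotein convertase, among processing enzymes (19.6), Ramp2, the partner of the adrenomedullin receptor, among receptors (74.2) and the chaperone gene Hsp90ab1 among nitric oxide genes (324). On the abundant-gene scale the calls among the 98 were Slc7a1 and Ackr3 lower in YT-iKO after sham, and Cav1, Slc7a1 and Ackr3 lower and Nos2 and Gja4 higher after MCAo. After MCAo against sham, Ednra, Ptgs2 and Prcp were higher and Nostrin lower in CTRL, and the same 4 with Gja4 higher were called in YT-iKO. Of all genes, 0.392% and 0.582% were called on that scale between genotypes after sham and after MCAo. For MCAo against sham 1.83% were called in CTRL and 1.75% in YT-iKO. Slc7a1 carries arginine, the substrate of nitric oxide synthases, Ackr3 binds adrenomedullin as a scavenger, Nostrin and Cav1 bind Nos3, and Prcp cleaves angiotensin II.

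Genes whose pattern over the 16 libraries was most like each of the 9 were looked for among 9122 other genes that average 10 CPM or more, by Pearson's r of log2(CPM + 1), as a description. The 16 points share groups and library factors. Edn1 was closest to Cp (r = 0.976), Serpinb6b (0.965) and Clec14a (0.950), and Edn3 to Kank4 (0.946), Fbln2 (0.942) and Itih5 (0.936). Ddah1 was closest to Slc16a4 (0.970), Amotl2 (0.949) and the targeted gene Yap1 (0.945), and Ece1 to Txnrd1 (0.987), Tmem88 (0.985) and Midn (0.983). Ace was closest to Ackr1, a chemokine-binding receptor of venules (0.986), Synpo (0.982) and Lrg1 (0.981), and Adm to Galnt15 (0.934), Acer2 (0.932) and Nek6 (0.923). On the abundant-gene scale the lowest r among these genes was 0.862, for Fbln2. For Nos3 the closest were Card10 (0.978), Fam13c (0.978) and Gga1 (0.976), and on the abundant-gene scale their r was 0.812, 0.748 and 0.663. For Ddah2 they were Sem1 (0.939), Clta (0.935) and Dnpep (0.934), with 0.778, 0.711 and 0.789 on that scale. Ednrb was below the 10 CPM mean and was not included.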

How the data were processed

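RNA of the 16 libraries was prepared with a SMART-Seq Ultra Low Input kit and, by the submitters' processing notes, aligned with STAR 2.7.8a to GRCm38. The values are raw read counts per gene, deposited by the authors for 37003 genes, every one of which reaches 6 counts in 3 or more libraries. Whether counting used strand is not given in the sources used here. Libraries held 11418262 to 23074547 counts, so genes near 100 counts carry more counting error than the rest.

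Genes were tested in edgeR 4.0.16 (R 4.3.3) with TMM factors, filterByExpr (minimum count 10, total 15) and a quasi-likelihood fit of all 4 groups, which share 1 estimate of the spread, with Benjamini-Hochberg adjustment over 31085 genes and a threshold of 0.1. Samples were grouped by genotype and treatment from the labels. Exact two-sided permutation tests used log2(CPM + 1) and 70 assignments. Alternatives were DESeq2 1.42.0, limma 3.58.1 (voom with quality weights), other library factors, filters, models and thresholds, and leaving out each library. The model was tested on simulated data, where it missed most of the smaller and many of the larger changes and false calls passed the threshold's rate in some comparisons, so a missing call does not show equal levels.

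The 9 genes were given, and the members and lists were chosen with earlier results of these data known. Named genes are the 9, Yap1 and Wwtr1, and the 3 most similar genes of each of the 9. From the wider lists every gene called by edgeR on either scale or by DESeq2 is named. A list with no edgeR call on the TMM scale gives its highest gene. Exon lengths and overlaps come from GENCODE M21. Labels do not say that replicates came from separate preparations beyond the pools, so p-values measure the spread between these libraries.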

Additional observations from a re-analysis of the deposited data

Results flagged for a closer look

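Ece1 in CTRL sham replicate 1, at 774.74 CPM, lay far below the other CTRL sham libraries, which were at 926 to 942 CPM. It was the 1 library that stood apart by Dixon's criterion among 36 groups of 4 values, and chance alone gives about 1 in 20 groups.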

How the results depend on the processing

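Calls between genotypes after sham numbered 3 of the 9 genes under every setting other than leaving out 1 library, where they ran from 1 to 3. After MCAo they numbered 2, and 0 to 3 with 1 library left out, 4 without the 5 libraries of high factor, and 2 or 3 otherwise. For MCAo in CTRL the 1 call became 2 with a stricter filter or the replicate block, 3 with library sums, abundant-gene factors or DESeq2, 4 with a model of 2 groups or receptor gene density as a covariate, 5 with limma, 6 without the 5 libraries, and 1 to 3 with 1 library left out. In YT-iKO the 1 call became 2 with the replicate block, 4 with DESeq2, 5 with library sums, the density covariate or limma, 6 with abundant-gene factors or without the 5 libraries, and 1 to 4 with 1 library left out. Over all genes, 67 calls in CTRL and 99 in YT-iKO became 121 and 137 with the stricter filter, 119 and 132 with the replicate block, 203 and 239 with DESeq2, 623 and 17 with a model of 2 groups, 569 and 544 with abundant-gene factors, 555 and 521 with library sums, 816 and 585 with the density covariate, 894 and 1826 without the 5 libraries and 7538 and 5626 with limma. Between genotypes edgeR called 30 of all genes after sham and 22 after MCAo. These became 34 and 29 with RLE factors or no filter, and 24 and 20 at an adjusted p under 0.05. They were 41 and 31 with the stricter filter, 40 and 34 with the replicate block, and 65 and 78 with DESeq2. A model of 2 groups gave 126 and 32, abundant-gene factors 122 and 181, and library sums 87 and 194. The density covariate gave 154 and 278, the set without the 5 libraries 121 and 116, and limma 143 and 257. The causes were not tested. With the replicate block the calls among the 9 genes between genotypes were 3 and 3. Libraries with the same replicate number had a median correlation of 0.155 (24 pairs, 13 over 0.1) against -0.0854 for 72 other pairs. For 3 of 16 libraries, the closest library was the one of the same number in every other group at once. The labels do not say what a number marks, and whether same-numbered libraries share a batch was not tested.

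Signs changed only for values that edgeR with TMM factors did not call. Of the changed values, Nos3 and Ddah2 for MCAo in YT-iKO were called under limma (adjusted p = 0.0815 and 0.0812). Between genotypes after sham, Ddah2 became 0.035 with library sums, 0.0073 with abundant-gene factors, 0.0076 with limma and 0.019 without the 5 libraries (-0.26 to 0.041 with 1 library left out). Ace became 0.0019 with RLE factors, 0.17 with library sums, 0.15 with abundant-gene factors, 0.021 with the stricter filter, 0.031 with 2 groups, 0.24 with density, 0.048 with limma and 0.083 without the 5 libraries (-0.084 to 0.082). After MCAo, Ece1 became 0.042 with library sums, 0.0020 with 2 groups and 0.088 without the 5 libraries (-0.26 to 0.17), Ednrb 0.22 (-0.52 to 0.18) and Ddah2 0.13 (-0.41 to 0.15) without them, Nos3 ran from -0.38 to 0.054 with 1 library left out, and Ace became -0.34 with limma. For MCAo in CTRL, Nos3 became -0.028 with the replicate block and -0.24 with limma (-0.093 to 0.13), Ddah2 -0.052 with limma and Ddah1 0.11 without the 5 libraries. In YT-iKO, Nos3 became -0.064 with density and -0.46 with limma (-0.16 to 0.29), Ece1 -0.023 with limma and Ddah2 -0.68 with limma (-0.083 to 0.48). Depth limits Ednrb most, with 65 to 398 counts per library.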
